A study of Homo sapiens with 18 samples.

Results

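The comparison of copanlisib with DMSO at 8 h used HAIR-M cells, a human line grown from marginal zone lymphoma (MZL in the labels), a tumour of mature B cells. Its members are the libraries labelled 8 h, 6 of the 18 RNA-seq libraries of the series. They are 3 libraries of cells kept for 8 h with 5 nM copanlisib and 3 libraries of cells kept for 8 h with DMSO, its solvent. The other 12 libraries hold the same treatments at 4 and 12 h. All groups come from 1 cell line, so they show the response of 1 tumour's cells and not of MZL in general, and no label states whether the replicates were cultured separately. The p-values therefore cover only the spread among these libraries, which could be purely technical.

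Copanlisib inhibits class I phosphoinositide 3-kinases (PI3K), lipid kinases that act below the B cell receptor, cytokine receptors and growth factor receptors. Their product recruits the kinase AKT to the membrane. Active AKT keeps FOXO transcription factors out of the nucleus and, through mTORC1, promotes the making of ribosomes, nucleotides, lipids and proteins. In mature B cells FOXO factors are known to drive genes of quiescence, homing and receptor signalling, while MYC and mTORC1 drive growth.

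The 8 h libraries held 20176516 to 25566761 reads on genes with copanlisib and 13587017 to 21583576 with DMSO. The protocol text in the labels mentions retinas, at odds with a cell line, so markers were checked first. All 10 B cell markers examined were expressed, with a summed level of 5108 to 5223 CPM with copanlisib and 4696 to 4814 CPM with DMSO (CPM, read counts scaled to the size of the library). The T cell receptor complex genes CD3D and CD3G had no read in the 6 libraries. Of 12 retina markers, 4 had no read at 8 h. The summed level of all 12 was 9.26 to 10.5 CPM with copanlisib and 8.83 to 10.0 CPM with DMSO. The 2 that were high enough to test, PDE6B and NRL, were not called, which concerns the response to copanlisib and not their presence. Between replicates at 8 h the chi-square per gene was 1.56 to 2.44, whereas at 4 h copanlisib replicates 1 and 2 differed from replicate 3 at 22.1 and 17.5 and from each other at 2.56. Unmapped reads were 8.73% and 5.22% in copanlisib replicates 1 and 2 of 4 h and 1.74% to 2.82% in the other 16 libraries of the series, and the mitochondrial share of reads on genes was 12.4% and 12.6% in the same 2 libraries and 9.07% to 10.5% in the rest. On the first principal component, which held 83.1% of the variance, the 3 copanlisib libraries lay on 1 side and the 3 DMSO libraries on the other. Reads that hit no gene made up 12.4% to 13.03% of the reads with copanlisib and 11.6% to 12.0% with DMSO, and the copanlisib libraries held 24927 to 25380 genes with at least 1 read, against 22775 to 24332 in the DMSO libraries.

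After 8 h, 2392 of the 16122 genes tested (14.8%) rose with copanlisib and 2944 (18.3%) fell, by edgeR's quasi-likelihood test at an adjusted p under 0.05. Together they were 33.1% of the genes tested. Most changes were small: 4312 of the 5336 called genes (80.8%) changed by less than 1.5-fold, and the median called gene rose by a log2 fold change of 0.37 or fell by 0.31. A change of at least 2-fold was seen in 159 risen genes (0.986% of those tested) and in 76 fallen genes (0.471%). The median over all genes tested was 0.015. In 5234 of the called genes the 3 copanlisib libraries and the 3 DMSO libraries did not overlap. Over all genes tested, the copanlisib libraries lay above all DMSO libraries in 24.5% and below them in 26.2%. The rule that named the largest rises and falls required groups without overlap, so for those genes the lack of overlap is no added support. Below, changes of a gene are log2 fold changes of copanlisib over DMSO with the SE, and a gene is not called where its adjusted p was 0.05 or more. Counts of called list members are to be read beside the 14.8% of all genes that rose and the 18.3% that fell. Counts near these shares do not set a list apart.

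The balance between rises and falls went with the level of the gene. Among genes with a mean of 10 to 100 CPM, 1218 rose and 1878 fell. Among those of 1 to 10 CPM, 721 rose and 263 fell. GC content moved with the response as well: the median log2 fold change was −0.08 for the fifth of genes whose transcripts are lowest in GC and 0.09 for the fifth highest in GC. The same 2 medians were 0.12 and −0.21 at 4 h, the other way round, and −0.064 and 0.046 at 12 h. The part of GC content in the results below, the comparison of the times among them, was not tested.

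**Figure D1:**
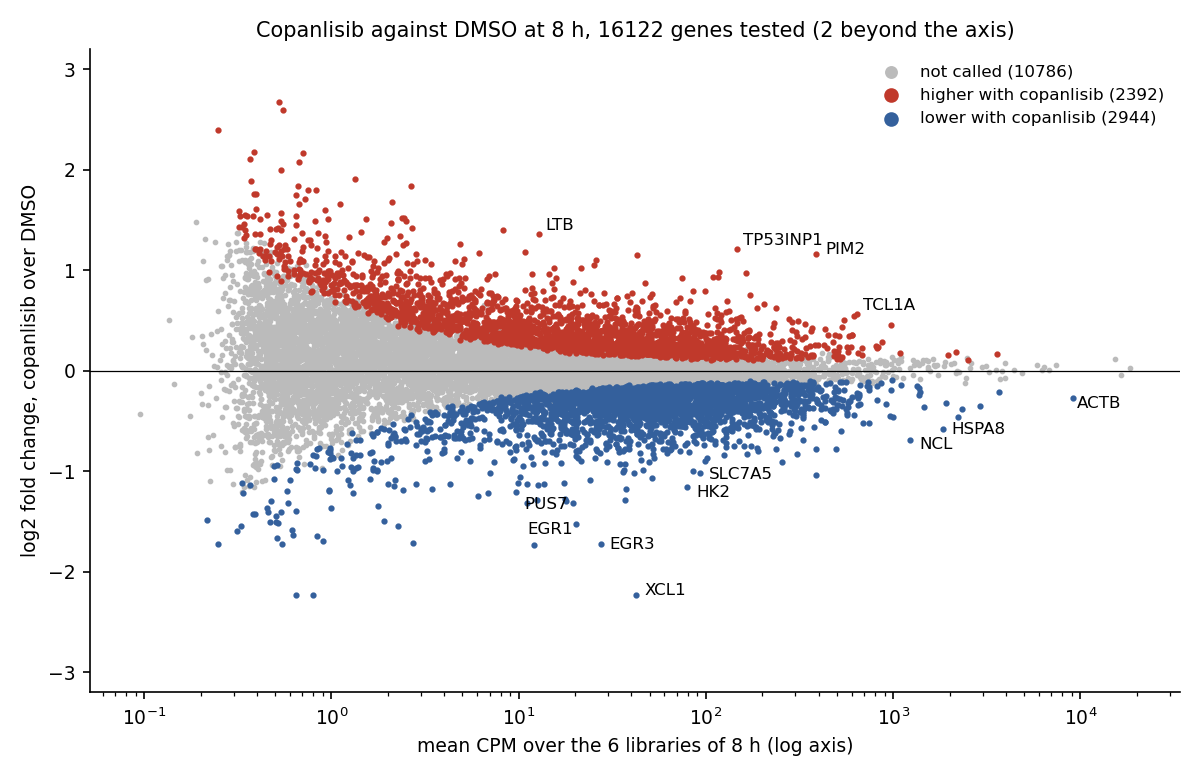
Log2 fold change at 8 h (copanlisib over DMSO, vertical axis) against the mean CPM over the 6 libraries of 8 h (horizontal log axis), 1 point a gene for 16122 genes. Red points mark the 2392 genes that rose and blue points the 2944 that fell; the lowest of the labelled genes is XCL1, and 2 genes lie beyond the axis.

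The protein-coding genes that rose most among those of at least moderate level included a cytokine, regulators of autophagy and quiescence, and an inhibitor of PI3K. LTB, lymphotoxin beta, a TNF family cytokine that B cells use to organise lymphoid tissue, was at 18.5, 19.8 and 17.2 CPM in the copanlisib libraries, against 6.80, 7.33 and 7.57 CPM in the DMSO libraries. The 2 groups did not overlap, with a log2 fold change of 1.36 ± 0.10 (SE, edgeR adjusted p = 4.5e-11). TP53INP1, a stress-induced regulator of autophagy, was at 209.6, 200.4 and 206 CPM in the copanlisib libraries, against 85.9, 87.3 and 92.1 CPM in the DMSO libraries. Every copanlisib library lay above every DMSO library (log2 fold change 1.22 ± 0.054, edgeR adjusted p = 6.9e-15). YPEL3, a small protein known for growth arrest, was at 62.4, 57.8 and 58.0 CPM in the copanlisib libraries, against 25.3, 25.01 and 30.00 CPM in the DMSO libraries, again without overlap (log2 fold change 1.16 ± 0.075, edgeR adjusted p = 6.9e-12). PIK3IP1, a membrane protein that binds and inhibits the catalytic subunit of PI3K, was at 20.7, 19.9 and 21.5 CPM in the copanlisib libraries, against 12.0, 7.81 and 10.4 CPM in the DMSO libraries. Its DMSO values were spread more widely than its copanlisib values, but all lay below them (log2 fold change 1.02 ± 0.10, edgeR adjusted p = 1.2e-08).

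Others of these highest changes fell into varied classes. PIM2, a serine/threonine kinase that promotes lymphoid cell survival and needs no upstream kinase for its activity, rose by 1.16 ± 0.044 to a mean of 538 ± 12.7 CPM with copanlisib, against 240.2 ± 12.1 CPM with DMSO (SD, n = 3 each). TSC22D3, the glucocorticoid-induced leucine zipper protein, rose by 0.98 ± 0.047. RAB37, a small GTPase of secretory vesicles, rose by 1.05 ± 0.078, ABTB1, an ankyrin repeat and BTB domain protein, by 1.03 ± 0.11, and GRAMD1C, a sterol transport protein, by 0.97 ± 0.085. WHRN, the scaffold protein whirlin, rose by 0.93 ± 0.059 and CYS1, the cilium protein cystin, by 1.18 ± 0.094.

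FOXO factors and their known targets were mostly higher. Of 36 tested members of this list, 23 rose, 0 fell and 13 were not called, with a median log2 fold change of 0.32 beside 0.015 for all genes. Their summed level was 1839 to 1852 CPM with copanlisib and 1318 to 1333 CPM with DMSO. The targets span several functions. TXNIP, which blocks glucose uptake and binds thioredoxin, was at 141, 144 and 143 CPM in the copanlisib libraries, against 71.1, 78.2 and 75.0 CPM in the DMSO libraries. The groups did not overlap (log2 fold change 0.93 ± 0.061, edgeR adjusted p = 8.0e-12). BMF, a pro-apoptotic BH3-only protein, rose by 0.77 ± 0.068, the mitophagy kinase gene PINK1 by 0.64 ± 0.14, and KLHL24, a ubiquitin ligase adaptor, by 0.63 ± 0.069. FBXO32, the ubiquitin ligase atrogin-1, rose by 0.62 ± 0.12, and the cell cycle inhibitor gene CDKN1B, encoding p27, by 0.41 ± 0.054. KLF2, a quiescence and homing factor of lymphocytes, was of low level, at 1.44, 1.31 and 1.25 CPM in the copanlisib libraries, against 0.652, 0.424 and 0.515 CPM in the DMSO libraries, and was called at 1.28 ± 0.44 (SE, edgeR adjusted p = 0.026), a call lost in 5 of the 16 alternative fits, 4 of them without 1 library of 8 h. Among the factors themselves, FOXO4 rose by 0.62 ± 0.10, whereas FOXO1 (0.034 ± 0.055) and FOXO3 (−0.083 ± 0.23) were not called. BCL2L11, encoding BIM, a FOXO target of lymphocytes, was not called either (−0.23 ± 0.16).

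The promoters of TXNIP, YPEL3 and LTB are shown because these 3 genes are among the strongest rises and each window holds the FOXO core motif GTAAACA. They were chosen after their values were seen. The windows are from RefSeq on GRCh38.p14, run from 250 bases before the annotated start to 50 bases after it, 5′ to 3′, and the capitals mark the motif. TXNIP is chr1:145996530-145996829 on the minus strand, YPEL3 is chr16:30096164-30096463 on the minus strand and LTB is chr6:31582376-31582675 on the minus strand.
TXNIP: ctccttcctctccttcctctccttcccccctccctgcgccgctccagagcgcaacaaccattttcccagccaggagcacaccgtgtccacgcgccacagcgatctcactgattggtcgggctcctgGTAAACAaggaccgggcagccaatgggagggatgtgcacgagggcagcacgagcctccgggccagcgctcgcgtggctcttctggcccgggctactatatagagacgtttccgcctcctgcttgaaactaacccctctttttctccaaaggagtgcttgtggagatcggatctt
YPEL3: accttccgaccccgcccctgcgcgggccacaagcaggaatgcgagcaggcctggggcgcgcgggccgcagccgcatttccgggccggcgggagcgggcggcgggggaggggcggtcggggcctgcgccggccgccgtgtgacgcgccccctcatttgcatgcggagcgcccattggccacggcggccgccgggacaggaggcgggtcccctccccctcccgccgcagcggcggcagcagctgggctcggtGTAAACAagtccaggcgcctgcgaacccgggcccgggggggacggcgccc
LTB: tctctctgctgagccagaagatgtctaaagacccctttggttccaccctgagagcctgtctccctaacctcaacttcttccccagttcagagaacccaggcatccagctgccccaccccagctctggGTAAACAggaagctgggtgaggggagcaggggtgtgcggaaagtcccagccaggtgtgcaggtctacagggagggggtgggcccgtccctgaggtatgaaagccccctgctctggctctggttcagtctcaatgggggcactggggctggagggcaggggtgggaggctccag
The motif begins 124 bases before the start of TXNIP, at the start base of YPEL3 and 123 bases before the start of LTB. Searched on both strands, GTAAACA was found in 4.29% of the promoters of protein-coding genes that rose, 1.95% of those that fell and 1.92% of those not called, out of 10311 tested protein-coding genes with a promoter window (81.2%). Among genes changed at least 2-fold, it stood in 5 of 66 windows of those that rose and 3 of 49 of those that fell. In the FOXO list, 4 of 31 windows held it. Among all 27305 RefSeq windows the share was 3.41%. It was 1 of 8 motifs searched on both strands. The E-box, the ATF4 motif, the ER stress element and the heat shock element are given below. The cAMP response element TGACGTCA stood in 3.16% of tested protein-coding promoters. Its share was 4.59% in genes that fell, 1.83% in those that rose and 2.97% in those not called. For the AP-1 motif TGANTCA (4.40% of all) these 3 shares were 4.71%, 5.17% and 4.10%. For the NRF1 motif GCGCATGCGC (2.25% of all) they were 2.46%, 1.39% and 2.39%. A match is a description of letters and not a bound site.

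Negative regulators of PI3K signalling rose in part. In the list of phosphoinositide phosphatases and other brakes, 5 of 11 genes rose and 2 fell, MTMR1 by 0.21 and PHLPP2 by 0.22. Over all genes tested, 14.8% rose and 18.3% fell, so the falls of this list were near that share. The PHLPP2 call was lost in 11 of the 16 alternative fits, the replicate block and all 6 without 1 library of 8 h among them. Beside PIK3IP1, the inositol 5-phosphatase genes INPP5K (0.52 ± 0.064) and INPP5D (0.32 ± 0.038), the second of which encodes SHIP1, the main 5-phosphatase of blood cells, were among the risen. Of the catalytic subunits, PIK3CD, the delta form of lymphocytes, was at 481, 469 and 481 CPM in the copanlisib libraries, against 409, 415 and 398 CPM in the DMSO libraries, a rise of 0.23 ± 0.053, and PIK3CG, the gamma form, rose by 0.63 ± 0.084. PIK3CA (0.16 ± 0.076) and PIK3CB (−0.086 ± 0.065) were not called, although PIK3CA passed when only the 6 libraries of 8 h were fitted (edgeR adjusted p = 0.0034). PIK3R1, the regulatory subunit p85 alpha, fell by 0.47 ± 0.052. In the list of insulin and growth factor receptor feedback, 4 of 10 genes rose and 3 fell, with IGF1R, the insulin-like growth factor receptor, at a rise of 0.48 ± 0.048 and ERBB2, a receptor tyrosine kinase, at 0.45 ± 0.11, while IRS2, an adaptor below these receptors, was not called (0.36 ± 0.17).

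**Figure D2:**
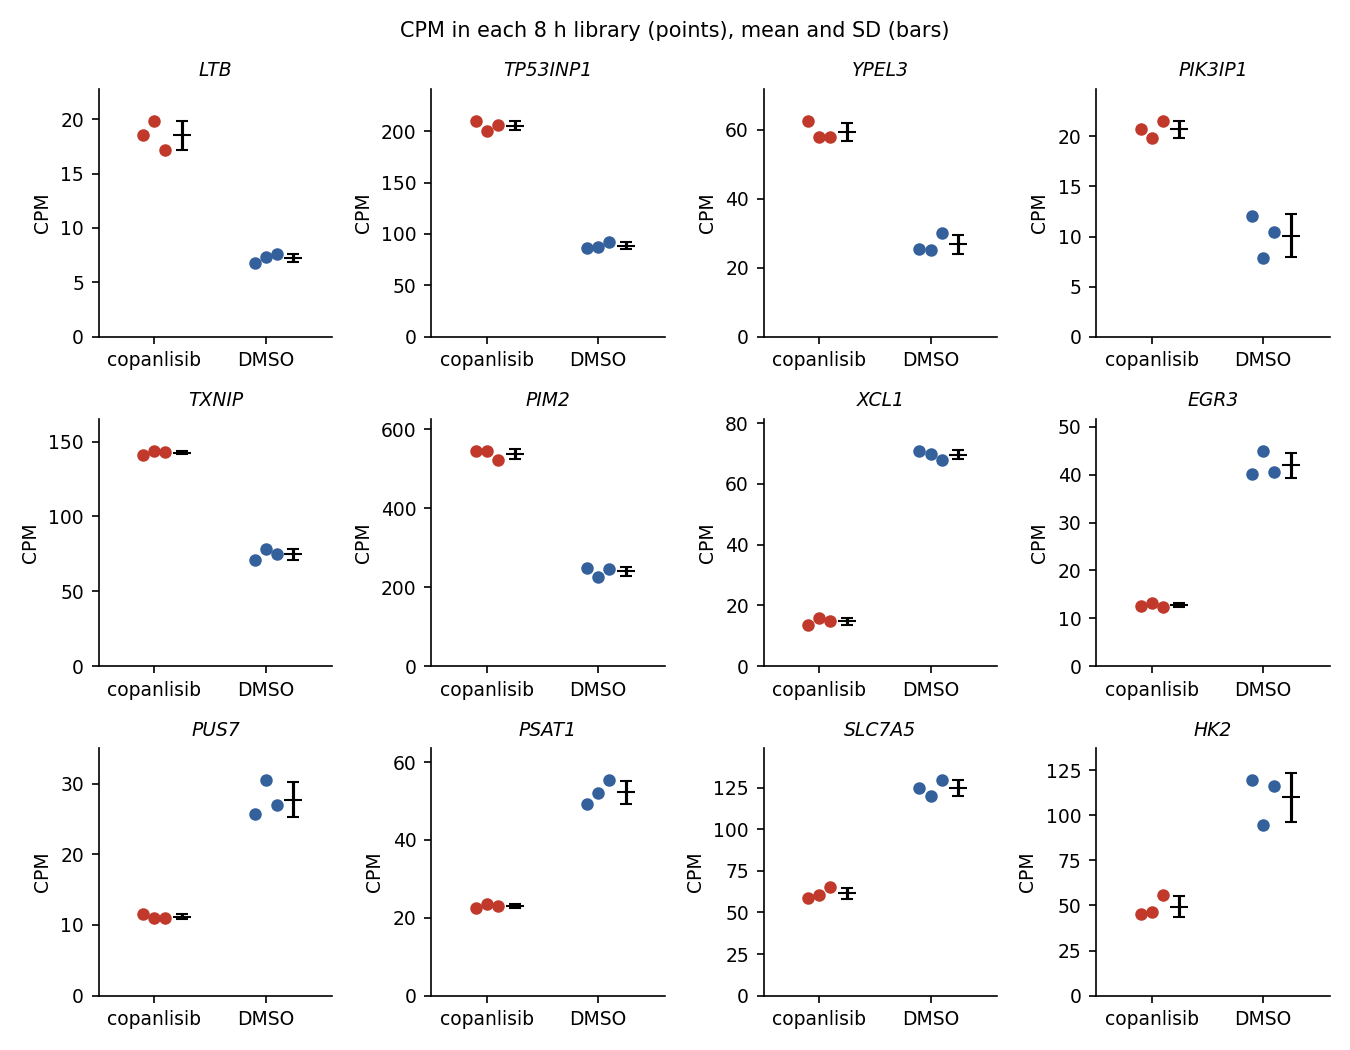
CPM (vertical axis, from 0, its own scale in each panel) in each of the 6 libraries of 8 h for 12 named genes, with copanlisib in red on the left and DMSO in blue on the right; bars give the mean and SD of 3 libraries. In each of the 12 panels the 3 copanlisib points lie on 1 side of the 3 DMSO points, above them for LTB, TP53INP1, YPEL3, PIK3IP1, TXNIP and PIM2 and below them for XCL1, EGR3, PUS7, PSAT1, SLC7A5 and HK2.

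Most B cell identity genes were higher with copanlisib. Of the 10 markers tested, 6 rose and none fell, with a median of 0.23. BLK, a SRC family kinase of the B cell receptor pathway, was at 219.9, 212 and 213 CPM in the copanlisib libraries, against 127, 122 and 131 CPM in the DMSO libraries. No library of the 2 groups overlapped (log2 fold change 0.76 ± 0.049, edgeR adjusted p = 8.0e-12). The receptor's signalling chain gene CD79B rose by 0.63 ± 0.082 and its partner CD79A by 0.26 ± 0.051. PAX5, the factor that maintains B cell identity, was at 401, 424 and 416 CPM in the copanlisib libraries, against 314, 321 and 308 CPM in the DMSO libraries, with all copanlisib libraries above all DMSO libraries (log2 fold change 0.40 ± 0.044, edgeR adjusted p = 7.6e-08). MS4A1, encoding CD20, at 0.11 ± 0.055, and CD22, an inhibitory lectin, at −0.088 ± 0.036, were not called, but MS4A1 was called higher in 3 and CD22 lower in 5 of the 16 alternative fits. SYK, the kinase that starts receptor signalling, rose by 0.40 ± 0.051.

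Transcription factors of B cells were more often higher than lower, with 12 of 26 higher and 1 lower. Over all genes tested, 14.8% rose and 18.3% fell. POU2AF1, a B cell co-activator of octamer factors, was at 629, 652 and 647 CPM in the copanlisib libraries, against 453, 446 and 462 CPM in the DMSO libraries. Its copanlisib libraries lay above its DMSO libraries without overlap (log2 fold change 0.50 ± 0.040, edgeR adjusted p = 2.9e-10). ETS1, a factor that restrains plasma cell formation in mice, rose by 0.59 ± 0.051. BACH2, another factor of that kind, was at 0.479, 0.590 and 0.568 CPM in the copanlisib libraries, against 0.186, 0.242 and 0.294 CPM in the DMSO libraries, too few reads for a firm value, and its call was lost in 7 of the 16 alternative fits (1.21 ± 0.42). Plasma cell genes were split, 4 risen and 4 fallen out of 16: JCHAIN, the joining chain of secreted IgM and IgA, rose by 0.67 ± 0.059, CD38 by 0.71 ± 0.10, IRF4 by 0.24 ± 0.037 and PRDM1 by 0.23 ± 0.072, whereas SLAMF7, a surface receptor of plasma cells, fell by 0.58 ± 0.045 and XBP1, the plasma cell and unfolded protein response factor, by 0.14 ± 0.044. The calls of PRDM1 and XBP1 were each lost in 5 of the 16 alternative fits. TCL1A, a co-activator of AKT, was at 776, 774 and 749 CPM in the copanlisib libraries, against 533, 504 and 521 CPM in the DMSO libraries, an increase of 0.56 ± 0.047 without overlap.

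Chemokine and cytokine genes fell more often than they rose. Of 20 tested, 9 fell and 4 rose, beside 18.3% and 14.8% of all genes tested. XCL1, lymphotactin, a chemokine for XCR1-bearing dendritic cells, was at 13.5, 15.7 and 15.0 CPM in the copanlisib libraries, against 70.9, 69.8 and 67.9 CPM in the DMSO libraries. The highest copanlisib library was far below the lowest DMSO library, for a log2 fold change of −2.23 ± 0.075 (SE, edgeR adjusted p = 3.1e-17). XCL2, its near-identical neighbour, had 0.287, 0.253 and 0.303 CPM with copanlisib and 1.49, 1.76 and 0.662 CPM with DMSO, and the share of its reads that belong to XCL1 is uncertain. CCL3, a chemokine induced by the B cell receptor, was at 4.93, 5.65 and 6.02 CPM in the copanlisib libraries, against 17.7, 19.2 and 18.8 CPM in the DMSO libraries, without overlap (log2 fold change −1.73 ± 0.11, edgeR adjusted p = 5.9e-12), and CCL4 fell by 1.69 ± 0.30. CCL3 has near-identical copies in the genome, so its level is uncertain too. TNF fell by 0.64 ± 0.076 and CCL22, a chemokine for regulatory T cells and among the most abundant transcripts, by 0.46 ± 0.044. The interferon-inducible chemokine gene CXCL10 went the other way, at 753, 742 and 712 CPM in the copanlisib libraries, against 509, 514 and 487 CPM in the DMSO libraries, a rise of 0.55 ± 0.060, as did CXCL9 (0.48 ± 0.063) and LTB.

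Feedback inhibitors of ERK signalling were mostly lower, and immediate early transcription factors fell more often than they rose. Among 25 immediate early factors, 12 fell, 4 rose and 9 were not called, with a summed level of 1031 to 1054 CPM with copanlisib and 1074 to 1108 CPM with DMSO. EGR3, a zinc finger factor induced by antigen receptors, was at 12.6, 13.2 and 12.4 CPM in the copanlisib libraries, against 40.2, 45.0 and 40.7 CPM in the DMSO libraries. The groups were far apart (log2 fold change −1.72 ± 0.088, edgeR adjusted p = 1.1e-13). EGR1 was at 8.81, 10.8 and 11.6 CPM in the copanlisib libraries, against 29.9, 29.7 and 31.0 CPM in the DMSO libraries, likewise without overlap (log2 fold change −1.53 ± 0.10, edgeR adjusted p = 5.9e-12). EGR2 fell by 0.90 ± 0.078 and FOSL1, an AP-1 subunit, by 1.12 ± 0.10, but FOS (0.087 ± 0.14) was not called and JUN rose slightly (0.17 ± 0.059). In the list of ERK feedback inhibitors, 11 of 15 fell, among them SPRED1 (−0.70 ± 0.082) and SPRY4 (−0.61 ± 0.071), which restrain RAS signalling, and the phosphatase gene DUSP10 (−0.77 ± 0.14). The 1 that rose was DUSP6, the ERK phosphatase, at 0.39 ± 0.15 (SE, edgeR adjusted p = 0.0499), whose call was lost in 14 of the 16 alternative fits.

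NF-kB subunits and regulators fell in 8 of 18 cases and rose in 1. REL, the subunit c-Rel of activated B cells, was at 20.1, 17.4 and 19.5 CPM in the copanlisib libraries, against 31.9, 37.1 and 28.6 CPM in the DMSO libraries. Its 2 groups did not overlap (log2 fold change −0.78 ± 0.10, edgeR adjusted p = 1.4e-06). NFKB1, encoding p105 and p50, fell by 0.40 ± 0.038 and MALT1, a protease of receptor-proximal NF-kB signalling, by 0.38 ± 0.060, while RELB, of the alternative pathway, rose by 0.23 ± 0.070. Among surface genes, PDCD1, encoding PD-1, fell by 0.88 ± 0.17 and FCRL5, an Fc receptor-like inhibitor, by 1.12 ± 0.21.

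Genes that make and mature noncoding RNA were mostly lower. MYC, a growth regulator that drives many of these genes, was at 113, 115 and 117 CPM in the copanlisib libraries, against 191, 177 and 189.7 CPM in the DMSO libraries, without overlap (log2 fold change −0.69 ± 0.045, edgeR adjusted p = 8.0e-12), and the MYC antagonist genes MXD4 and MXD3 rose by 0.73 ± 0.085 and 0.44 ± 0.11. Of 18 tested genes of RNA polymerase I, which transcribes ribosomal RNA, 11 fell and none rose, with the subunit genes POLR1G at −0.75 ± 0.085 and POLR1B at −0.67 ± 0.062. Of 22 genes of RNA polymerase III, which transcribes transfer RNA and 5S RNA, 12 fell and 2 rose. The largest fall was in POLR3G, a subunit tied to proliferating and stem cells, at 10.8, 10.4 and 9.84 CPM in the copanlisib libraries, against 24.0, 26.3 and 25.7 CPM in the DMSO libraries. The groups did not overlap (log2 fold change −1.29 ± 0.091, edgeR adjusted p = 3.0e-11). Among the risen genes was MAF1 (0.31 ± 0.062), the repressor of this polymerase, beside GTF3C5 (0.17 ± 0.063), a subunit of its factor TFIIIC. NCL, nucleolin, an abundant nucleolar protein, was at 904, 968 and 966 CPM in the copanlisib libraries, against 1511, 1561 and 1514 CPM in the DMSO libraries (log2 fold change −0.69 ± 0.045, edgeR adjusted p = 8.0e-12), and LYAR, a nucleolar growth regulator, fell by 1.29 ± 0.084.

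Small nucleolar ribonucleoprotein and pseudouridine synthase genes fell in 14 of 22 cases and rose in none. PUS7, which writes pseudouridine into transfer and messenger RNA, was at 11.5, 10.9 and 10.98 CPM in the copanlisib libraries, against 25.8, 30.5 and 27.0 CPM in the DMSO libraries. Its highest copanlisib library was below its lowest DMSO library by a wide margin (log2 fold change −1.31 ± 0.083, edgeR adjusted p = 5.8e-12). NOP56, a core protein of box C/D particles, fell by 0.58 ± 0.038 and NAF1, an assembly factor of box H/ACA particles, by 0.57 ± 0.073. Transfer RNA modification enzymes showed the same picture, with 20 of 36 lower and none higher, METTL1, which methylates guanosine, at −0.81 ± 0.10 and NSUN2, which methylates cytosine, at −0.59 ± 0.049. Host genes of small nucleolar RNAs fell in 7 of 19 cases, SNHG15 by 0.73 ± 0.071 and SNHG4 by 0.77 ± 0.11.

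The promoter of PUS7 is shown as the strongest fall of this group, with the E-box CACGTG, the site of MYC and related factors, in capitals. It is chr7:105522222-105522521 on the minus strand (RefSeq, GRCh38.p14, 5′ to 3′), and the motif begins 28 bases after the annotated start.
PUS7: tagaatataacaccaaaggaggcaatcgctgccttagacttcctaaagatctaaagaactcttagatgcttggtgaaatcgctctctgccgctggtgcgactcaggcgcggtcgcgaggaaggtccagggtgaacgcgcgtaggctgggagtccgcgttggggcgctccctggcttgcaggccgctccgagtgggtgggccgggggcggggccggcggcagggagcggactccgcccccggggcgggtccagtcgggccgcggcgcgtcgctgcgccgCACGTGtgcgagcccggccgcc
The letters CACGTG stood in 13.4% of the promoter windows of genes that fell, 8.52% of those that rose and 9.48% of those not called. Over all tested protein-coding genes with a window the share was 10.2%. Lists with many falls lay on both sides of that share. The motif stood in 6 of 16 windows of RNA polymerase III, 8 of 33 of translation initiation factors and 5 of 24 of nuclear transport receptors. It stood in 1 of 16 windows of RNA polymerase I, 1 of 18 of the cytosolic aminoacyl-tRNA synthetases and 2 of 33 of the proteasome. The lysosome list, in which 7 of 28 tested genes rose and 6 fell, had it in 8 of 16 windows. In these 300-base windows most genes that fell lacked CACGTG.

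Genes that charge transfer RNAs and start translation fell as groups, while 72 of 76 ribosomal protein genes were not called. Of 22 cytosolic aminoacyl-tRNA synthetase genes and their partners, 20 fell, 1 rose (QARS1, the glutamine enzyme, 0.14 ± 0.044) and 1 was not called, with a median of −0.41. Their summed level was 3638 to 3732 CPM with copanlisib and 4849 to 4926 CPM with DMSO. FARSB, a subunit of the phenylalanine enzyme, was at 68.1, 72.5 and 73.4 CPM in the copanlisib libraries, against 124, 136 and 130.4 CPM in the DMSO libraries. Its groups did not overlap (log2 fold change −0.87 ± 0.061, edgeR adjusted p = 2.7e-11). GARS1 fell by 0.82 ± 0.054 and IARS1 by 0.62 ± 0.052. Of 39 translation initiation factors, 26 fell and 1 rose, including EIF4E, the cap-binding protein, by 0.57 ± 0.061, and EIF2S1, eIF2 alpha, by 0.62 ± 0.062. Of 29 nuclear transport receptors, 24 fell and none rose, including XPOT, the exporter of transfer RNA, by 0.55 ± 0.047. Of 76 cytosolic ribosomal protein genes, 2 rose and 2 fell, with a median of 0.054 and a summed level of 74358 to 77612 CPM with copanlisib and 71783 to 76368 CPM with DMSO. Those called were RPL13A (0.19 ± 0.049), RPL3 (0.10 ± 0.039), RPS26 (−0.23 ± 0.069) and RPL17 (−0.37 ± 0.12), and near-identical pseudogenes make the counts of this family uncertain. EEF2, the elongation factor that moves the ribosome, rose by 0.17 ± 0.051 and had the largest gain in CPM among the called protein-coding genes. These are relative levels: the libraries do not show the total RNA per cell, and in bulk RNA fewer cells of a kind and less RNA per cell cannot be told apart.

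**Figure D3:**
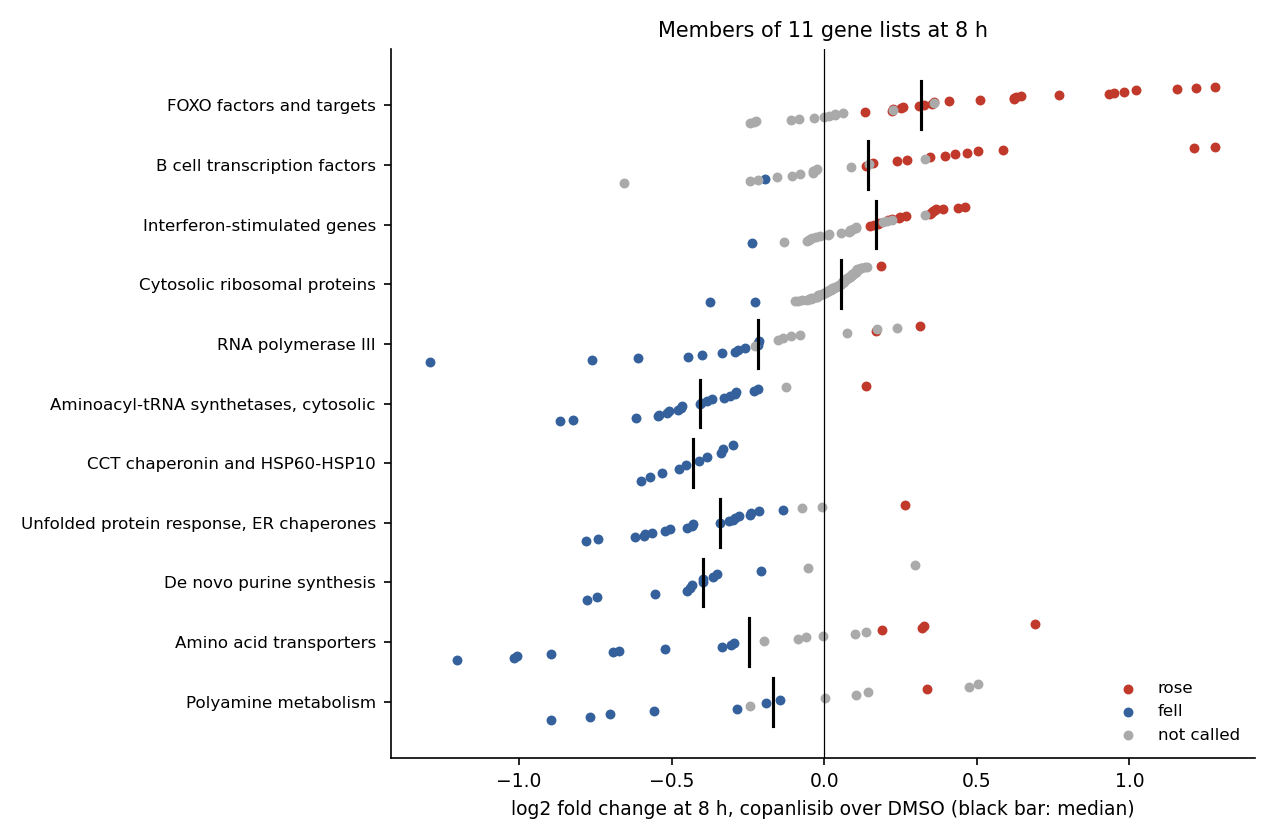
Log2 fold changes at 8 h (horizontal axis, copanlisib over DMSO) of the tested members of 11 gene lists, 1 point a gene, red for genes that rose, blue for genes that fell and grey for genes not called; black bars mark the list medians. The points of the CCT chaperonin list all lie left of 0, those of the cytosolic ribosomal proteins crowd around 0.05, and most of the FOXO list lie right of 0.

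Targets of the amino acid response were mostly lower too. Of 18 tested targets of ATF4, the factor of amino acid stress and of mTORC1, 12 fell and none rose, with a median of −0.47. ASNS, asparagine synthetase, was at 25.4, 27.6 and 29.2 CPM in the copanlisib libraries, against 54.7, 55.3 and 56.3 CPM in the DMSO libraries. The groups did not overlap (log2 fold change −1.01 ± 0.062, edgeR adjusted p = 4.7e-12). CTH, cystathionine gamma-lyase, fell by 0.91 ± 0.12 and STC2, a secreted glycoprotein of stress, by 0.74 ± 0.10. The ASNS promoter, chr7:97872359-97872658 on the minus strand (RefSeq, GRCh38.p14, 5′ to 3′), is shown because it holds the composite ATF4 motif TGATGNAA, in capitals from 68 bases before the start.
ASNS: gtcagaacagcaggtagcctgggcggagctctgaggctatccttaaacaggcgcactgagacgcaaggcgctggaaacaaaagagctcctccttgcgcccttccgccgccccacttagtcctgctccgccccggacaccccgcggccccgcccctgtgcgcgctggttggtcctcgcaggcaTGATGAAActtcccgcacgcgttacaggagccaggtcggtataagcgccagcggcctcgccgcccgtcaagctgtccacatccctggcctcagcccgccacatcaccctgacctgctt
TGATGNAA was present in 2 of 16 windows of the ATF4 target list and in 6 of 18 windows of the synthetase list. Its share was 2.55% in genes that fell, 1.20% in those that rose and 1.63% in those not called. Over the windows of all tested protein-coding genes it was 1.78%.

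Amino acid transporters moved in both directions, 10 lower and 4 higher out of 20. SLC7A5, the large neutral amino acid carrier LAT1, was at 58.4, 60.8 and 65.1 CPM in the copanlisib libraries, against 125, 119.8 and 129 CPM in the DMSO libraries. The 2 groups were separated without overlap (log2 fold change −1.02 ± 0.063, edgeR adjusted p = 4.7e-12). Its partner chain gene SLC3A2 fell by 0.52 ± 0.063, the cystine carrier SLC7A11 by 1.20 ± 0.11 and the glutamine carrier SLC38A5 by 1.01 ± 0.072. In contrast, SLC43A2, a leucine-type carrier, rose by 0.69 ± 0.086 and SLC38A9, the arginine sensor of the lysosome that acts on mTORC1, by 0.32 ± 0.10. In serine and one-carbon metabolism 10 of 15 genes fell and 2 rose. PSAT1, the second enzyme of serine synthesis, was at 22.6, 23.5 and 23.0 CPM in the copanlisib libraries, against 49.3, 52.0 and 55.3 CPM in the DMSO libraries, with a clear gap between the groups (log2 fold change −1.17 ± 0.075, edgeR adjusted p = 6.6e-12), and MTHFD2, the mitochondrial folate enzyme, fell by 0.56 ± 0.039.

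Genes of nucleotide synthesis were mostly lower. Of 13 genes of de novo purine synthesis, 11 fell and none rose, with a median of −0.40. PAICS, which joins neighbouring steps of the pathway, was at 172, 175 and 176 CPM in the copanlisib libraries, against 298, 302 and 296 CPM in the DMSO libraries. The groups did not overlap (log2 fold change −0.78 ± 0.045, edgeR adjusted p = 1.1e-12). PPAT, the first committed enzyme, fell by 0.75 ± 0.074 and PFAS by 0.56 ± 0.059, whereas IMPDH2, the rate-limiting enzyme of guanine nucleotides, was not called (−0.054 ± 0.039). In pyrimidine synthesis 6 of 9 fell, with CTPS1, CTP synthase, at −0.72 ± 0.052 and CAD, the enzyme of the first steps, at −0.46 ± 0.064. In polyamine metabolism 7 of 14 genes fell, 1 rose and 6 were not called. ODC1, ornithine decarboxylase, the rate-limiting enzyme, was at 70.9, 69.4 and 67.2 CPM in the copanlisib libraries, against 129, 125 and 132 CPM in the DMSO libraries, likewise without overlap (log2 fold change −0.89 ± 0.052, edgeR adjusted p = 1.2e-12), and SRM, spermidine synthase, fell by 0.70 ± 0.074.

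Genes of lipid synthesis were mostly lower. Of 20 cholesterol synthesis genes, 16 fell and 1 rose (TM7SF2, a sterol reductase, 0.28 ± 0.083), with a median of −0.44. IDI1, the isomerase of isoprenoid units, was at 95.7, 94.4 and 96.5 CPM in the copanlisib libraries, against 159, 165 and 161 CPM in the DMSO libraries, and its groups lay apart (log2 fold change −0.76 ± 0.047, edgeR adjusted p = 5.2e-12). HMGCS1, an early enzyme of the pathway, fell by 0.75 ± 0.047. Of 16 fatty acid synthesis genes, 12 fell and 1 rose. ACACA, the rate-limiting carboxylase, fell by 0.83 ± 0.059, FASN, fatty acid synthase, by 0.78 ± 0.10, and SCD, the desaturase, by 0.82 ± 0.040. Among 15 genes of fatty acid oxidation and PPAR targets, none fell and 2 rose, the receptor gene PPARA (0.49 ± 0.091) and HADH, a beta-oxidation enzyme (0.16 ± 0.046). In glycolysis 13 of 24 fell and none rose. HK2, the inducible hexokinase, was at 45.5, 46.4 and 55.9 CPM in the copanlisib libraries, against 119, 94.5 and 116 CPM in the DMSO libraries, without overlap (log2 fold change −1.16 ± 0.074, edgeR adjusted p = 6.6e-12), and SLC2A3, a glucose carrier, fell by 0.65 ± 0.087.

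Chaperones of the cytosol, the mitochondria and the endoplasmic reticulum (ER) were mostly lower. All 10 genes of the CCT chaperonin, which folds actin and tubulin, and of the mitochondrial pair HSP60 and HSP10 fell, with a median of −0.43 and a summed level of 3064 to 3092 CPM with copanlisib and 4153 to 4156 CPM with DMSO. CCT5 was at 223, 221 and 228 CPM in the copanlisib libraries, against 337, 343 and 340.5 CPM in the DMSO libraries. The copanlisib libraries lay below the DMSO libraries (log2 fold change −0.60 ± 0.041, edgeR adjusted p = 1.7e-11). HSPD1 and HSPE1, which encode HSP60 and HSP10, fell by 0.45 ± 0.042 and 0.47 ± 0.060. Of 20 heat shock chaperones and co-chaperones, 11 fell and none rose. HSPA8, the constitutive HSP70, was at 1441, 1519.5 and 1457 CPM in the copanlisib libraries, against 2112, 2301 and 2195 CPM in the DMSO libraries, again without overlap (log2 fold change −0.58 ± 0.043, edgeR adjusted p = 8.1e-11), and HSP90AA1 fell by 0.35 ± 0.055. ACTB, actin, a client of CCT, was at 8165, 8178 and 8340.0 CPM in the copanlisib libraries, against 9891, 9732 and 10163 CPM in the DMSO libraries (log2 fold change −0.27 ± 0.045, edgeR adjusted p = 2.9e-05). This was the largest loss of CPM among the called protein-coding genes. Actin genes have many processed pseudogenes, which makes their counts uncertain.

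The promoter of HSPE1 is shown as a member of this list with an E-box, in capitals from 22 bases before the start. It is chr2:197500129-197500428 on the plus strand (RefSeq, GRCh38.p14, 5′ to 3′).
HSPE1: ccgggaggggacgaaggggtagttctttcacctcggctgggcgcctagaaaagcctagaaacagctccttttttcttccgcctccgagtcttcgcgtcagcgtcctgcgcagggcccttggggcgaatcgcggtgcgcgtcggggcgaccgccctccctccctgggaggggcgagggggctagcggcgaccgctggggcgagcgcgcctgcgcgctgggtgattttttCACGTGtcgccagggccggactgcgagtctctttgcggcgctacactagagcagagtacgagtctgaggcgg
In the CCT and HSP60-HSP10 list, 2 of 9 windows held CACGTG. The heat shock element GAANNTTCNNGAA was found in 5 of 17 windows of the heat shock list, beside 0.330% of all tested protein-coding genes, 0.340% of those that fell and 0.126% of those that rose.

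The unfolded protein response and ER chaperone list had 20 of 23 genes lower and 1 higher, with a median of −0.34. HSPA5, encoding BiP, the main ER chaperone, was at 361, 366 and 369.7 CPM in the copanlisib libraries, against 623, 654 and 608 CPM in the DMSO libraries. No library of the groups overlapped (log2 fold change −0.78 ± 0.043, edgeR adjusted p = 5.8e-13). MANF, a secreted ER stress protein, fell by 0.74 ± 0.056, DNAJB11, a co-chaperone of BiP, by 0.62 ± 0.064, PDIA3, a disulfide isomerase, by 0.59 ± 0.049, and HSP90B1, the ER HSP90, by 0.52 ± 0.056. ERN1, which encodes the stress sensor IRE1, rose by 0.26 ± 0.075, and P4HB, another disulfide isomerase, was not called (−0.0081 ± 0.045). The promoter of HSPA5, chr9:125241294-125241593 on the minus strand (RefSeq, GRCh38.p14, 5′ to 3′), is shown because it holds the ER stress element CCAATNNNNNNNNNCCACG, in capitals from 66 bases before the start.
HSPA5: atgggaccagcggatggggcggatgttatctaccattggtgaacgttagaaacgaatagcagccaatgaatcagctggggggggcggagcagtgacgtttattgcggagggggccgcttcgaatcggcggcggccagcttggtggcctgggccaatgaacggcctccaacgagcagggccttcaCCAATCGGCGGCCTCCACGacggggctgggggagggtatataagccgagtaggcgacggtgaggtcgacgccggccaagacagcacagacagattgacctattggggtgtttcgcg
This element was present in 6 of 22 windows of the list and in 14 of the 10311 windows of tested protein-coding genes. Of these 14 genes, 10 fell, none rose and 4 were not called. Its last letters, CCACG, can share bases with an E-box.

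Proteasome genes fell in 23 of 38 cases and rose in none, among them PSMD14, the deubiquitinase of the lid, by 0.53 ± 0.050, and PSME3, the nuclear activator subunit, by 0.56 ± 0.041. In the mitochondria, calls were frequent among import genes and none was made among transcripts of the mitochondrial genome. Of 28 protein import genes, 18 fell and none rose, with TOMM40, the outer membrane channel, at −0.60 ± 0.065 and TIMM8A, a small carrier chaperone, at −0.69 ± 0.10. Of 77 mitochondrial ribosomal protein genes, 32 fell and 1 rose, with MRPL3 at −0.54 ± 0.069. Of 58 nuclear-encoded respiratory chain genes, 5 fell and 2 rose. Of these, CYCS, cytochrome c, was at 218 ± 6.25 CPM in copanlisib cells, against 336 ± 7.38 CPM in DMSO cells (SD, n = 3 each), a fall of 0.62 ± 0.047, and SDHA, a subunit of complex II, rose by 0.23 ± 0.044. None of the 13 transcripts of the mitochondrial genome was called. Their summed level was 75164 to 78114 CPM with copanlisib and 75755 to 77849 CPM with DMSO, and the smallest p was that of MT-ND5 (0.061 ± 0.059).

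**Figure D4:**
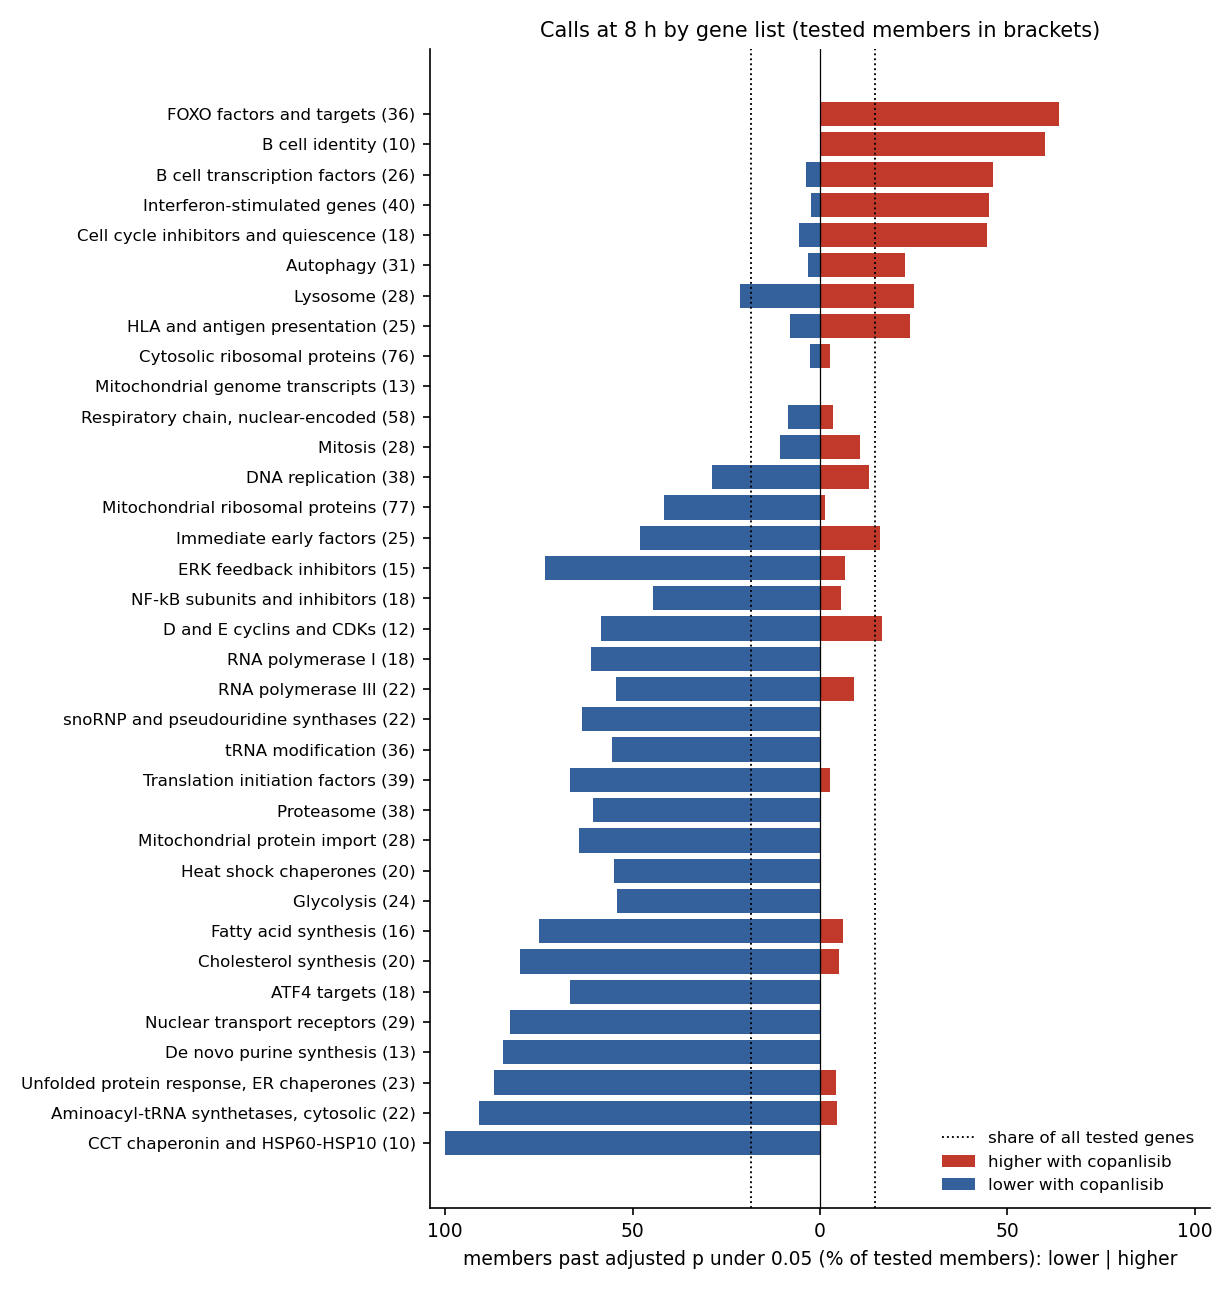
Share of tested members past an adjusted p under 0.05 at 8 h in each of the lists shown (horizontal axis, % of tested members, with the number tested in brackets), red to the right for genes higher with copanlisib and blue to the left for genes lower with copanlisib. The dotted lines mark the shares over all genes tested, 14.8% and 18.3%; the bar of the CCT list spans all of its 10 members, and no member of the mitochondrial genome list was called.

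G1 cyclins and their kinases were mostly lower. Of 12 D and E cyclins and their kinases, 7 fell and 2 rose. CCND2, the D cyclin with the highest CPM among the 3, was at 421, 429.6 and 433 CPM in the copanlisib libraries, against 557, 566 and 548 CPM in the DMSO libraries. Its groups did not overlap (log2 fold change −0.38 ± 0.035, edgeR adjusted p = 3.9e-09). CDK6, its partner kinase, fell by 0.50 ± 0.052 and CCND1 by 0.86 ± 0.10, but CCND3 rose by 0.19 ± 0.068, a call lost in 5 of the 16 alternative fits, 4 of them without 1 library of 8 h. Among cell cycle inhibitors and quiescence genes 8 of 18 rose and 1 fell, the repressor factor gene E2F4 (−0.37 ± 0.049). Beside CDKN1B, CDKN2D, encoding p19, rose by 0.46 ± 0.13. In DNA replication 11 of 38 fell and 5 rose, with the loader gene CDC6 at −0.33 ± 0.065. Of 28 mitosis genes, 3 fell and 3 rose, shares below or near those of all genes, and the median was −0.0046. CDK1, the mitotic kinase, fell by 0.16 ± 0.056 and CCNB1, its cyclin, by 0.15 ± 0.048, while PLK1 rose by 0.15 ± 0.058. Of the 16 alternative fits, PLK1 lost its call in 8, CDK1 in 7 and CCNB1 in 5, mostly in those without 1 library of 8 h.

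Survival genes changed in both directions, and the BCL2 family was called about as often as all genes. Of its 14 tested members, 3 rose, 2 fell and 9 were not called, with a median of 0.021. Over all genes tested, 14.8% rose and 18.3% fell. MCL1, an anti-apoptotic BCL2 family member, was at 357, 366 and 364 CPM in the copanlisib libraries, against 256, 266 and 252 CPM in the DMSO libraries, with all copanlisib libraries higher (log2 fold change 0.49 ± 0.047, edgeR adjusted p = 6.5e-09). BCL2A1, another anti-apoptotic member and a known NF-kB target, was at 69.5, 74.5 and 76.2 CPM in the copanlisib libraries, against 124, 119.5 and 124 CPM in the DMSO libraries, with all copanlisib libraries lower (log2 fold change −0.74 ± 0.063, edgeR adjusted p = 1.1e-09). BCL2 itself was not called (−0.075 ± 0.050). Among pro-apoptotic members, BMF rose, as above, and BBC3, encoding PUMA, rose by 0.35 ± 0.12. PIM1, a kinase related to PIM2, rose by 0.58 ± 0.062, whereas PIM3 fell by 0.40 ± 0.11. Of 20 p53 family members and targets, 6 rose and 4 fell: TP63, a p53 relative, rose by 0.66 ± 0.060 and GDF15, a secreted stress factor, fell by 1.13 ± 0.21. In autophagy 7 of 31 genes rose and 1 fell, with ULK1, the initiating kinase, at 0.64 ± 0.088. Lysosome genes rose in 7 and fell in 6 of 28 cases, with SCARB2 at 0.41 ± 0.062 and the protease gene CTSD at 0.29 ± 0.075.

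Homing receptors and interferon-stimulated genes were more often higher than lower. In the homing list 8 of 23 rose and 4 fell, beside 14.8% and 18.3% of all genes tested, so its falls were near that share. CXCR4, the receptor for CXCL12 that holds B cells in marrow and lymphoid tissue, was at 160.3, 152 and 167 CPM in the copanlisib libraries, against 111, 97.8 and 109 CPM in the DMSO libraries. The groups did not overlap (log2 fold change 0.59 ± 0.053, edgeR adjusted p = 2.2e-09). RGS1, which damps chemokine receptor signals, fell by 0.79 ± 0.085. Of 40 interferon-stimulated genes, 18 rose and 1, IFIT5, fell (−0.24 ± 0.074), with a median of 0.17. IFIT2 rose by 0.46 ± 0.10, IFIT3 by 0.36 ± 0.059 and the antiviral GTPase gene MX1 by 0.35 ± 0.038. STAT2, a factor of the interferon response, was at 164, 163 and 162 CPM in the copanlisib libraries, against 121, 120.4 and 119 CPM in the DMSO libraries, without overlap (log2 fold change 0.44 ± 0.044, edgeR adjusted p = 1.3e-08). In antigen presentation 6 of 25 genes rose and 2 fell, with NLRC5, the regulator of HLA class I, at 0.28 ± 0.057 and the peptide transporter gene TAP2 at −0.51 ± 0.058.

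Markers of stromal and epithelial cells were higher as well. Of 12 such markers, 6 were tested, 5 rose and none fell, and the summed level of all 12 was 88.4 to 91.4 CPM with copanlisib and 63.2 to 69.2 CPM with DMSO. COL1A1, a collagen chain, was at 26.7, 25.1 and 26.3 CPM in the copanlisib libraries, against 17.1, 19.4 and 18.6 CPM in the DMSO libraries. The groups did not overlap (log2 fold change 0.51 ± 0.10, edgeR adjusted p = 1.9e-04). The keratin genes KRT18 and KRT8 rose by 0.45 ± 0.070 and 0.38 ± 0.10, and CDH1, E-cadherin, by 0.44 ± 0.092. COL1A1's partner chain COL1A2 had reads in 1 of the 6 libraries, LUM and KRT19 had none, and COL3A1 and DCN had reads in 1 library each. The part of other cells in these results was not tested. Of 12 T and NK cell markers, 3 were tested and PRF1, perforin, was called, at 0.479, 0.422 and 0.114 CPM in the copanlisib libraries, against 0.792, 0.606 and 1.10 CPM in the DMSO libraries (log2 fold change −1.31 ± 0.41, edgeR adjusted p = 0.014). The summed level of the T and NK list was 13.01 to 13.4 CPM with copanlisib and 14.5 to 16.8 CPM with DMSO, of which NKG7 alone held 11.6 to 11.9 CPM with copanlisib and 13.1 to 14.8 CPM with DMSO. No myeloid marker was called, and CD163 and ELANE had no read.

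Noncoding genes rose more often than they fell. Over all genes tested, 14.8% rose and 18.3% fell. By calls, long noncoding genes differed from these shares in having few falls, while their rises were near the share of all genes. Of 2190 long noncoding genes tested, 334 rose and 71 fell, with a median log2 fold change of 0.20, while protein-coding genes had 1963 rises and 2832 falls out of 12704. At matched levels the 2 classes gave the following: among protein-coding genes of 1 to 10 CPM, 462 rose and 199 fell, and among long noncoding genes of the same level 209 rose and 37 fell. COLCA1, an antisense gene named for colorectal cancer, was at 35.9, 34.3 and 36.1 CPM in the copanlisib libraries, against 16.4, 16.2 and 16.9 CPM in the DMSO libraries, without overlap (log2 fold change 1.10 ± 0.10, edgeR adjusted p = 1.9e-09). RUNX3-AS1, antisense to the lymphoid factor gene RUNX3, rose by 1.25 ± 0.20, and VPS9D1-AS1, another antisense transcript, fell by 1.12 ± 0.11. HK2-DT, the divergent transcript beside HK2, fell by 0.81 ± 0.13, as HK2 itself did. The share of reads outside genes, given above, was also higher in the copanlisib libraries than in the DMSO libraries. Read totals of 2 of the 3 copanlisib libraries were above those of every DMSO library. Antisense counts rest on the strand column, and the kit named in the labels does not mark strand. The part of these differences in the changes of noncoding genes was not tested.

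Among abundant transcripts, those that gained most in CPM included lymphoid and translation genes, and those that lost most included cytoskeleton and chaperone genes. Beside EEF2 and TCL1A, RPL13A, a ribosomal protein of the large subunit, stood at 2357, 2290.0 and 2255 CPM with copanlisib and 2099.6, 1977 and 1988 CPM with DMSO. PSAP, the precursor of lysosomal saposins, was at 2082 ± 30.3 CPM in copanlisib cells, against 1861 ± 61.0 CPM in DMSO cells (SD, n = 3 per group), a rise of 0.16 ± 0.049. EEF1A1, the elongation factor that brings transfer RNAs, was at 4054 ± 65.2 CPM in copanlisib cells, against 3828 ± 34.5 CPM in DMSO cells and its log2 fold change was 0.083 ± 0.036 (edgeR adjusted p = 0.082). On the losing side, LCP1, an actin-bundling protein of leukocytes, was at 2032 ± 46.9 CPM in copanlisib cells, against 2650.3 ± 22.3 CPM in DMSO cells, a fall of 0.38 ± 0.041, and HSP90AB1, the constitutive cytosolic HSP90, at 1692 ± 17.1 CPM in copanlisib cells, against 2116 ± 7.33 CPM in DMSO cells, a fall of 0.32 ± 0.037. CCL22 stood at 1848, 1905 and 1864 CPM with copanlisib and 2599, 2559 and 2577 CPM with DMSO, with the groups apart.

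The response at 8 h was set beside those at 4 and 12 h, each measured against its own DMSO libraries. At 4 h 38.4% of genes were called and at 12 h 30.3%. Of the genes called at 8 h, 3553 were called in the same direction at 12 h, which is 66.6% of the 8 h calls and 72.8% of the 12 h calls, and 2 in the opposite direction. With 4 h the same-direction overlap was 2705 genes, 50.7% of the 8 h calls and 43.7% of the 4 h calls, and 169 genes were called in opposite directions. The 4 h effect rests in part on the copanlisib replicates 1 and 2 described above, and the median log2 fold change of the 13 mitochondrial genome transcripts was 0.30 at 4 h, 0.0047 at 8 h and 0.012 at 12 h. The part of these 2 libraries in the overlap with 4 h was not tested. At all 3 times 804 genes rose and 1341 fell. Because all 18 libraries share 1 estimate of spread, leaving out copanlisib replicates 1 and 2 of 4 h gave 6675 calls at 8 h in place of 5336, with 99.8% of the 5336 among them.

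A test of the 8 h effect minus the mean of the 4 and 12 h effects called 90 genes, 0.558% of those tested, 43 (0.267%) with a higher and 47 (0.292%) with a lower value at 8 h. CHAC1, a glutathione-degrading enzyme and ATF4 target, had log2 fold changes of −1.83 at 4 h, −0.49 at 8 h and −1.48 at 12 h. Its fall was smallest at 8 h, a difference of 1.16 ± 0.14 (SE, edgeR adjusted p = 2.4e-04). LIF, a cytokine of the IL-6 family, had the same shape, with −1.14 at 4 h, −0.41 at 8 h and −0.88 at 12 h. MPEG1, the pore-forming protein perforin-2, was lower at 8 h than at the other times, with −0.13 at 4 h, −0.77 at 8 h and −0.33 at 12 h and a difference of −0.55 ± 0.078 (SE, edgeR adjusted p = 0.0012). ANK2, the membrane adaptor ankyrin-B, showed −0.065 at 4 h, −1.27 at 8 h and −1.12 at 12 h, and TENM3, a teneurin adhesion protein, 0.21 at 4 h, −0.43 at 8 h and 0.079 at 12 h. These 5 genes were called in the difference test whichever library of 8 h was left out, whereas the count of 90 fell to 8 without DMSO replicate 2 and to 41 without DMSO replicate 1. With DESeq2, ANK2, LIF, TENM3 and MPEG1 were called, but for CHAC1 its filter on mean counts gave no adjusted p. Without copanlisib replicates 1 and 2 of 4 h the count was 96. It was 19 without DMSO replicate 3 and 16, 22 and 34 without copanlisib replicates 1, 2 and 3.

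The chaperone, synthetase and purine genes with a called difference were at their lowest or near it at 8 h. HSPA8 had log2 fold changes of −0.19 at 4 h, −0.58 at 8 h and −0.38 at 12 h, a difference of −0.30 ± 0.053 (SE, edgeR adjusted p = 0.0081). FARSB had −0.28 at 4 h, −0.87 at 8 h and −0.69 at 12 h, and NCL had −0.34 at 4 h, −0.69 at 8 h and −0.53 at 12 h. PAICS, in contrast, was as low at 12 h as at 8 h, with −0.25 at 4 h, −0.78 at 8 h and −0.78 at 12 h. SLC7A5 and FOSL1 fell least at 8 h, SLC7A5 with −1.44 at 4 h, −1.02 at 8 h and −1.25 at 12 h and FOSL1 with −1.80 at 4 h, −1.12 at 8 h and −1.44 at 12 h. CCND3 was above 0 at 8 h and below it at the other times. Its values were −0.20 at 4 h, 0.19 at 8 h and −0.17 at 12 h. Its difference of 0.38 ± 0.084 (SE, edgeR adjusted p = 0.037) was not called when any 1 library of 8 h was left out. The differences of NCL, PAICS, SLC7A5 and FOSL1 were likewise called in none of these fits. That of FARSB was called only without DMSO replicate 1, copanlisib replicate 2 or copanlisib replicate 3. That of HSPA8 was lost without DMSO replicate 2 and without copanlisib replicate 1. Of the 1137 genes called at 8 h and at neither other time, 6 had a called difference, so most of these cannot be said to differ between the times.

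**Figure D5:**
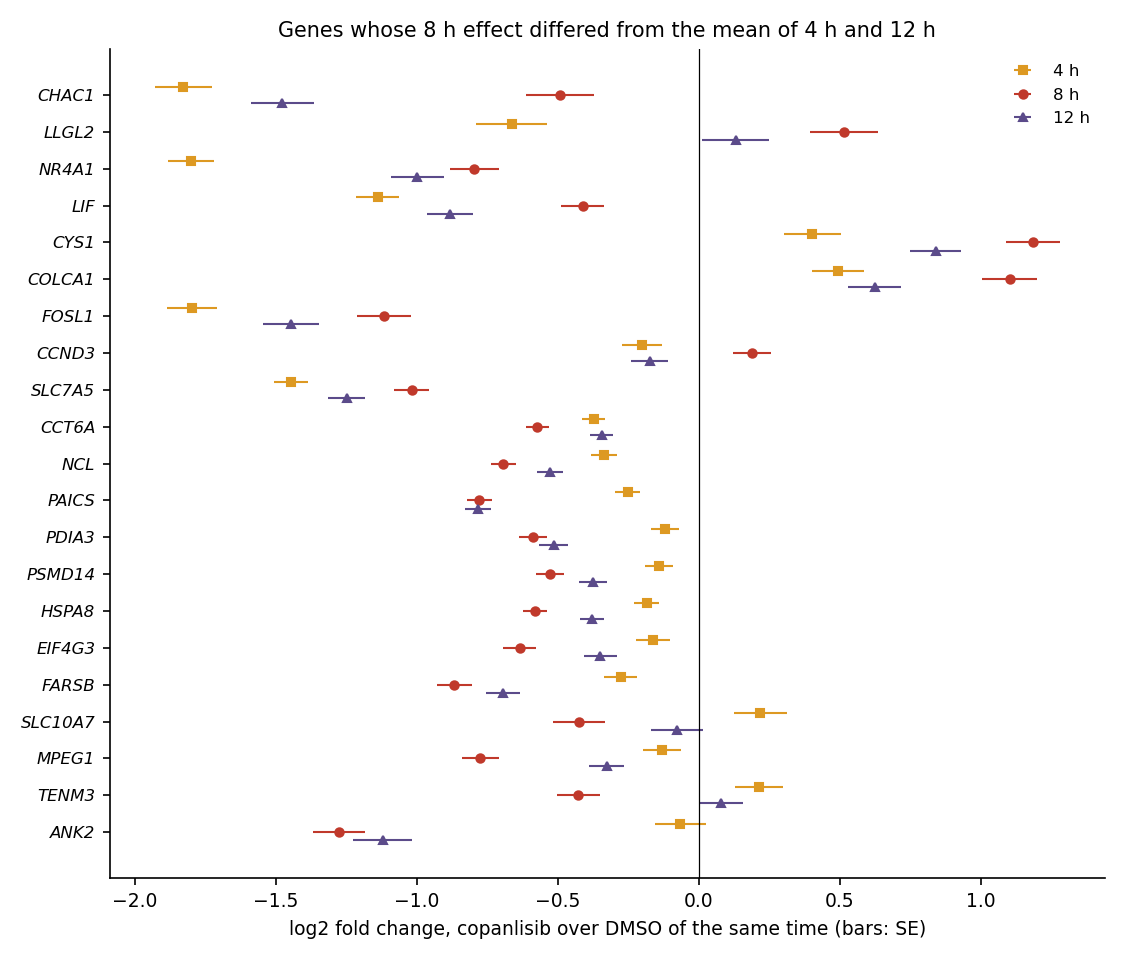
Log2 fold change of copanlisib over DMSO (horizontal axis) at 4 h (squares), 8 h (circles) and 12 h (triangles) for 21 named genes, 1 a line, whose 8 h effect differed from the mean of the 4 and 12 h effects; points are fitted values and bars their SE. The 8 h circle of MPEG1 lies left of its other marks, while CHAC1 falls by 1.83 at 4 h, 0.49 at 8 h and 1.48 at 12 h.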

How the data were processed

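RNA from HAIR-M cells was sequenced in 18 libraries, 6 of them from 8 h. The deposited files hold raw read counts per gene from STAR 2.5.2b after CASAVA 1.7, on hg38, per the submitters' processing notes. Which annotation was used is not named in those notes. Each file has unstranded counts and counts per strand. The library kit named in the labels does not mark strand, but the fourth column held 95.0% to 95.3% of stranded reads, so it was used. Reads with several hits (9.52% to 10.1%) are not in these counts, which leaves genes with near-identical copies uncertain, and reads outside genes were left out of library sizes.

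Genes with enough reads (filterByExpr, minimum count 10) numbered 16122 of 35239 with any read. They were fitted with edgeR 4.0.16 in R 4.3.3 (quasi-likelihood, TMM, 1 mean per group, all 18 libraries, since the groups then share an estimate of spread), two-sided with Benjamini-Hochberg adjustment over all genes tested and a threshold of 0.05. CPM use TMM-scaled library sizes. At 5 nM copanlisib, DMSO served as the control. Reads on genes per 8 h library are given in the text, and the number of libraries limits the precision. The fit was tested on simulated data with the same spread for every gene, which the real data need not have. Alternatives used DESeq2 1.42.0, limma 3.58.1 (voom), other size factors, no filter, counts without strand, a replicate block, fewer libraries and a stricter threshold.

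The members and gene lists were chosen with earlier results of these data known, so the lists are described by counts and medians only. Genes were named by a rule. It took the 12 highest and 12 lowest protein-coding changes among non-overlapping called genes at an average log2 CPM of at least 3. It also took the 6 highest and 6 lowest of other classes. From called protein-coding genes it took the 8 largest gains and 8 largest losses of CPM. The rest were up to 3 called members per list, a list of fixed genes, and the 5 highest and 5 lowest differences from the other times. Chosen after their values were seen were BBC3, BCL2L11, CCL4, CCNB1, CD22, CD79A, CDH1, CDK1, CXCL9, DUSP6, E2F4, EEF1A1, EGR2, ERN1, FBXO32, FOS, FOSL1, FOXO3, FOXO4, GTF3C5, HSP90B1, HSPD1, HSPE1, IFIT3, IFIT5, IMPDH2, IRF4, JUN, KLHL24, KRT8, MAF1, MS4A1, MTMR1, MX1, P4HB, PDIA3, PHLPP2, PINK1, PLK1, PRDM1, QARS1, RELB, SLC38A9, SLC3A2, SLC43A2, TM7SF2, TNF and XBP1, markers named for having no or few reads, and the printed promoters. Some genes that these rules take in are not reported here.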

Additional observations from a re-analysis of the deposited data

Results flagged for a closer look

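Among the named genes, 21 had an 8 h effect (log2, copanlisib over DMSO) that differed from the mean of the 4 and 12 h effects in edgeR's test of that difference, with adjusted p from 0.00024 to 0.045. A positive difference, meaning a higher value at 8 h, was 1.16 for CHAC1, 0.78 for LLGL2, 0.60 for NR4A1, 0.60 for LIF, 0.56 for CYS1, 0.54 for COLCA1, 0.51 for FOSL1, 0.38 for CCND3 and 0.33 for SLC7A5. A negative difference was −0.68 for ANK2, −0.57 for TENM3, −0.55 for MPEG1, −0.49 for SLC10A7, −0.38 for FARSB, −0.38 for EIF4G3, −0.30 for HSPA8, −0.27 for PSMD14, −0.27 for PDIA3, −0.26 for PAICS, −0.26 for NCL and −0.21 for CCT6A. LLGL2, a cell polarity protein, was lower at 4 h and higher at 8 h, with log2 fold changes of −0.66 at 4 h, 0.51 at 8 h and 0.13 at 12 h. NR4A1, an orphan nuclear receptor induced by antigen receptors, fell by 1.80 at 4 h and by 0.80 at 8 h. SLC10A7, a membrane carrier, had 0.22 at 4 h, −0.42 at 8 h and −0.077 at 12 h. Under the alternatives, 5 to 12 of the 21 were called when 1 library of 8 h was left out, and ANK2, CHAC1, LIF, TENM3 and MPEG1 were called each time. With DESeq2 17 of the 21 were called, and CHAC1, CYS1, LLGL2 and FOSL1 got no adjusted p. No explanation of these differences was tested.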

How the results depend on the processing

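The count of genes called at 8 h was within 1.5 times of 5336 in all 16 alternatives, from 3620 at an adjusted p under 0.01 to 7214 with the 6 libraries of 8 h and a replicate block. At that stricter threshold 1436 genes rose, and 100 rose at least 2-fold. Leaving out each library of 8 h in turn gave 4312 to 4501 calls, 1821 to 1993 higher and 2427 to 2633 lower, and 231 to 268 of at least 2-fold, 144 to 174 higher and 84 to 100 lower. Of 262 called named genes, 39 lost their call in at least 1 of the 16 alternatives and none changed sign, and DESeq2 gave 1 of the 262 no adjusted p. Those lost most often were DUSP6, WIPI1, PHLPP2 and PLK1. RPL3 also lost its call in 6 of the 16, and JUN, GTF3C5, PRDM1 and XBP1 lost theirs in 5 each. BBC3, QARS1, RPL17 and IFIT5 lost theirs in 4 each, and RELB, EEF2, RPS26, CDKN2D and PRF1 in 3 each. The count of genes whose 8 h effect differed from the other times moved most. In place of 90 (43 higher, 47 lower) it was 330 with DESeq2 (103 higher, 227 lower), 531 without a filter (376 higher, 155 lower) and 13 at an adjusted p under 0.01 (7 higher, 6 lower). With limma-voom 73 were lower. Without single libraries it ranged over 8 to 41, with 3 to 21 higher and 5 to 20 lower. Apart from the stricter threshold, the cause of these moves was not tested. Leaving out a library of 8 h changes both which libraries and how many are fitted, and these were not separated.

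Same-numbered libraries of the 2 groups correlated only weakly in their deviations from the group means, at 0.054, 0.029 and 0.067. Libraries of unlike number correlated at −0.12 to 0.059. With 3 libraries per group these values cannot decide whether the replicate numbers pair the libraries. With the replicate block 5301 genes were called, 2371 higher and 2930 lower, and 97.8% of the calls were kept. In that fit 92 genes differed from the other times. With only the 6 libraries of 8 h, 7020 genes were called without the block and 7214 with it. Depth limits genes of few reads, such as KLF2 and BACH2, most.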
